A study of Mus musculus with 502 samples.

Results

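The genes described here are 9 that respond to interferon gamma: the guanylate binding protein genes Gbp2, Gbp2b, Gbp3, Gbp4, Gbp5 and Gbp7, the transcription factor gene Irf1, and Ly6i and Cfb. They were taken by symbol from the 46603 gene rows of the count table, and all 9 were found. The members were chosen by their counts in these same cells, with earlier results known, so every level below is a description and carries no test. The cells were viable, propidium iodide negative Cd45+ cells sorted from kidneys of wild type CD1 mice, an outbred stock, at about 3 weeks of age. Kidneys were dissociated at once (fresh) or kept whole in HTS-FRS, a hypothermic preservation solution, at 4 °C for 6 h or 1, 2, 3 or 4 days, and full-length cDNA of each cell was sequenced without molecular identifiers. No group carried a transgene, a deletion or a drug. A number in the sample titles, taken here as the library pool, divided the 502 cells (the figures leave out its prefix IM): pool IM793 held 75 fresh cells, 76 after 6 h, 78 after 2 days and 2 after 4 days, pool IM834 held 81 fresh cells, 75 after 1 day, 82 after 3 days and 19 after 4 days, and pool IM790 held 14 after 4 days. The kidneys of a timepoint came from the same mouse according to the methods, and no label names an animal. Each timepoint within a pool was therefore taken as 1 sample, and animal and time cannot be told apart.

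Interferon gamma, made by T cells and natural killer cells, binds a receptor of the chains Ifngr1 and Ifngr2, and the kinases Jak1 and Jak2 carry the signal onward. Target promoters can hold the gamma activated site (GAS) and the interferon stimulated response element (ISRE), and Irf1, itself a target, binds the ISRE. Guanylate binding proteins are large GTPases that assemble on vacuoles and on bacteria inside the cell. Ly6i encodes a surface protein of the Ly6 family tethered by a lipid anchor, and Cfb encodes complement factor B, the protease precursor of the alternative complement pathway.

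Gbp5, Gbp7, Gbp3, Gbp2b and Gbp2 lie side by side on the forward strand of chromosome 3 in GRCm38 (GENCODE M21). From left to right they are Gbp5 (chr3:142493978-142522344), Gbp7 (chr3:142530342-142550149), Gbp3 (chr3:142560026-142573209), Gbp2b (chr3:142594847-142619179) and Gbp2 (chr3:142620602-142638008). Gbp4 lies on the reverse strand of another chromosome (chr5:105115767-105139586), as do Ly6i (chr15:74979534-74983430) and Cfb (chr17:34856374-34862518), and Irf1 lies on the forward strand (chr11:53770014-53778374). The stretches before the transcript start are printed for 4 members, to show which of the sites named above lie there: Gbp2, the member with the highest level in the fresh cells of pool IM793, Gbp3, Gbp7 and Irf1. They are the 250 bases before the RefSeq start on the forward strand of GRCm38.p6, at chr3:142620413-142620662, chr3:142559794-142560043, chr3:142530086-142530335 and chr11:53769764-53770013, with GAS (TTCNNNGAA) and ISRE core (GAAANNGAAA, or TTTCNNTTTC on the other strand) in capitals.
Gbp2: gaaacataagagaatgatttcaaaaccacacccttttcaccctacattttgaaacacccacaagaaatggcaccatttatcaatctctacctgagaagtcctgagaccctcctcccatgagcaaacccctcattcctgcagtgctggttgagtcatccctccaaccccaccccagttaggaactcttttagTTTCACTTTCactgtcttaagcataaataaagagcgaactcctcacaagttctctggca
Gbp3: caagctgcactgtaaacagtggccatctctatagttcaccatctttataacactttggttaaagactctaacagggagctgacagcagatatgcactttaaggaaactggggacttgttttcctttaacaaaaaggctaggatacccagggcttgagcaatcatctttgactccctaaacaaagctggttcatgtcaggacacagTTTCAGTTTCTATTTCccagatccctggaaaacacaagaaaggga
Gbp7: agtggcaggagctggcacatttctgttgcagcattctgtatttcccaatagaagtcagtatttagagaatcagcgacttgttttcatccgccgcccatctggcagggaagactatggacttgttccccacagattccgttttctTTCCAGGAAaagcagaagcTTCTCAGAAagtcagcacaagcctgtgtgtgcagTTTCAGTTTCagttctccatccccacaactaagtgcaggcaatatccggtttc
Irf1: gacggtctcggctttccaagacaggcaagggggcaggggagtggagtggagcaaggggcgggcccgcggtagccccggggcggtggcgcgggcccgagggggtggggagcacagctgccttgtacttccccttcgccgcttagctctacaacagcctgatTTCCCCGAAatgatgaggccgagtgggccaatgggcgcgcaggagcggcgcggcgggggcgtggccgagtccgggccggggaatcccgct
Counted from the start, so that -1 is the base just before it, the ISRE core begins at -59 in Gbp2 and at -45 and -39 in Gbp3, where both matches overlap. Gbp7 holds a GAS at -106 and at -87 and an ISRE core at -53, and Irf1 holds a GAS alone, at -90. Of those not printed, Gbp2b has an ISRE core at -137, and Gbp5 has a GAS at -245 and at -52 and an ISRE core at -165. Over all 32851 promoter windows of 300 bases in the table, both strands searched, the ISRE core was in 3.44%, GAS in 8.30% and both in 0.454%. RefSeq lists a second start for Gbp3 and for Irf1, and neither motif is in those windows. The RefSeq start of Gbp2 lies 61 bases after the GENCODE gene start, so that its ISRE core falls just inside the GENCODE gene model. That of Gbp5 lies 2956 bases after it, so that its whole window, with the GAS and ISRE matches, lies inside the GENCODE gene. A match is a run of letters and was not tested as a binding site. No promoter was matched for Gbp4, Ly6i or Cfb.

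**Figure D1:**
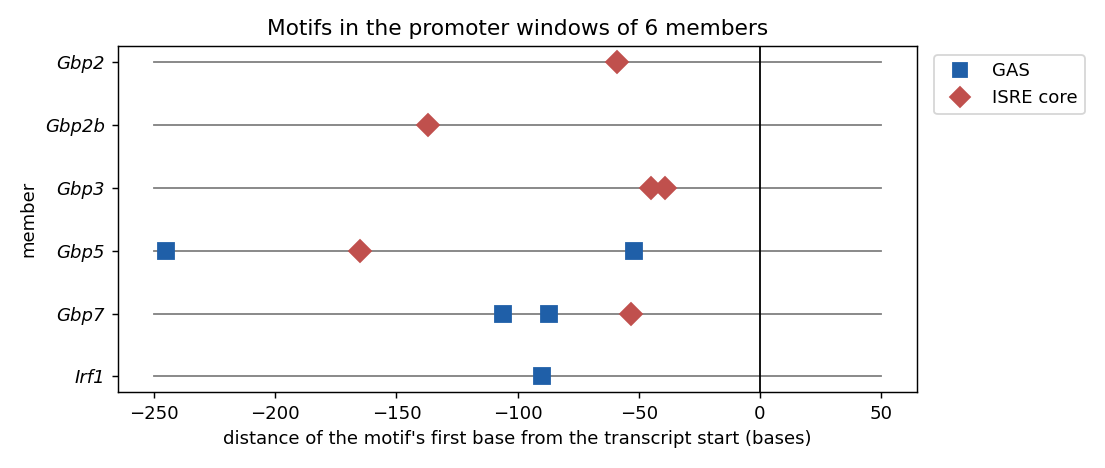
Distance in bases from the RefSeq transcript start (x axis) of the first base of each GAS (squares) and ISRE core (diamonds), for the 6 members with a match (rows). Irf1 has GAS alone, Gbp2, Gbp2b and Gbp3 have the ISRE core alone, and Gbp5, whose RefSeq start lies 2956 bases inside its GENCODE gene, and Gbp7 have both.

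Counts on genes per cell ran from 1759 to 1895431, and group medians ran from 417385 (day 4, pool IM834) to 1128170 (day 4, pool IM790), with the 2 cells of day 4 in pool IM793 left aside. Levels below are CPM, counts scaled to a total of 1000000 gene counts over the summed cells of a group, and values of a single cell on the same scale are written rpm. Cells were gated at 10 counts of 5 markers, with each cell in 1 gate. The C1qb and S100a8 gates took cells with any count of Csf1r, and cells with 10 counts of other pairs of markers were kept apart. Cd3d was read in 88.5% of the cells of the Cd3e gate, Cd79b in 100% of the Cd79a gate, C1qa in 98.4% of the C1qb gate, Ccr2 in 69.4% of the Csf1r gate, and S100a9 in 85.1% of the S100a8 gate. Cd3d was also read in 31.9% of the S100a8 gate, where Cd3g and Lck, the other T cell markers checked, were read in 2.13% and 6.38%. The Csf1r gate was the least clear: Ly6c2 was read in 47.2% of its cells and in 46.8% of the S100a8 gate, Flt3 in 8.33% and in 18.7% of cells of no gate, and the neutrophil marker Csf3r in 52.8% and in 85.1% of the S100a8 gate. The other neutrophil markers checked, S100a9 and Retnlg, were read in 13.9% and 0% of the Csf1r gate, and Retnlg in 51.1% of the S100a8 gate. Gates were unequal between groups: the Csf1r and S100a8 gates held 29 and 21 of the 75 fresh cells of pool IM793 but 4 and 0 of the 81 fresh cells of pool IM834, where 43 cells fell in the Cd3e gate. Ptprc, which encodes Cd45, was read in 80.5% to 97.5% of cells up to day 3 and in 42.1% at day 4 of pool IM834. Summed CPM of 4 kidney tubule markers was 0 to 67.2 outside the 2 cells of day 4 in pool IM793, and that of 3 erythroid markers 0 to 5.25. Summed CPM of 3 endothelial markers was 60.6 fresh, 128.3 at 6 h and 166.8 at day 2 in pool IM793, and 0 to 91.99 in pool IM834. That of 3 natural killer cell markers was 399.6, 721 and 115.2 at these times in pool IM793, and 227.3 fresh and 0 (day 4) to 217.3 (day 3) after preservation in pool IM834. The part of these cell types in the members' levels was not tested. Xist, the RNA of the inactive X chromosome, was read in 64%, 55.3% and 37.2% of fresh, 6 h and day 2 cells of pool IM793. In pool IM834 it was read in 2.47% of fresh, 80% of day 1, 0% of day 3 and 5.26% of day 4 cells. Fresh cells of the pools, and day 1 and fresh cells of pool IM834, thus differ in Xist as well as in pool or time, and the animal or its sex cannot be told apart from time or pool. Some of the 317 index pairs recur between pools, and 362 cells hold such a pair, and no columns were identical.

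All 9 members were high in the fresh cells of pool IM793 and lower or unread in the fresh cells of pool IM834. Gbp2 stood at 2444 CPM (exact Poisson interval 2430 to 2458) in pool IM793 and at 49.4 CPM (47.4 to 51.5) in pool IM834. It was read in 62 of 75 cells (82.7%, exact Clopper-Pearson interval 72.2 to 90.4%) against 4 of 81 (4.94%, 1.36 to 12.2%). The Poisson interval takes reads as independent and is too narrow where they are not. Reads that carry no molecular identifier can be copies of 1 molecule even after duplicates were depleted. The interval of a share takes cells as independent, and neither interval covers differences between animals. Per cell, Gbp2 ran from 0 through a median of 1212 to 20539 rpm in the fresh cells of pool IM793, and its median was 0 in every other group.

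The other GTPase genes followed in the same direction. Gbp7 stood at 636 CPM in pool IM793 and 142.99 CPM in pool IM834, Gbp3 at 549 and 43.9 CPM, and Gbp4 at 476 and 168.7 CPM. Gbp2b (441 CPM, read in 39 cells) and Gbp5 (79.01 CPM, read in 17 cells) had no read in any of the 81 fresh cells of pool IM834, which, taken as 3 of 81 cells, allows a share of up to 3.70% of cells with a read (4.45% by the exact Clopper-Pearson limit). Gbp4 was the GTPase gene with the smallest gap, at 2.82-fold, against 4.45-fold for Gbp7, 12.5-fold for Gbp3 and 49.5-fold for Gbp2. Against a floor of 3 counts in the summed fresh cells of pool IM834, Gbp2b stood 6669-fold and Gbp5 1194-fold higher in pool IM793. These folds, like the ratios called bounds below, are set by the floor and are not lower limits of the gap. A cell with a read can add more than 3 counts, as did the 541 counts of Ly6i in 1 cell at day 3 of pool IM834.

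Irf1, the factor that binds the ISRE, differed least: 898 CPM with a read in 81.3% of cells in pool IM793, and 431 CPM with a read in 40.7% in pool IM834, a 2.08-fold gap. Ly6i stood at 401 CPM in pool IM793, in 32 of 75 cells, and Cfb at 44.3 CPM, in 29 of 75 cells. Neither had a read in the fresh cells of pool IM834, a gap of 6064-fold for Ly6i and 670-fold for Cfb against the same floor. The counts of Cfb are uncertain, because 69.9% of the 75-base stretches of its transcripts also occur in the overlapping readthrough gene model Gm20547. That gene had no count in any cell. Reads that fit both genes may have gone uncounted, which would make the level of Cfb too low, and the part of the overlap was not tested. The same overlap was 11.3% for Gbp7 (with Gm43802, among others), 3.08% for Gbp4 (with Gbp11, among others), 2.06% for Gbp3 (Gbp7), and under 1% for the others.

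At least 2-fold higher in the fresh cells of pool IM793 were 9 of 9 members, with a median log2 ratio of 5.63 (4 of the 9 being bounds), against 27.8% of the 12233 genes whose sums held 100 counts or more between them and a median of -0.16 over those genes. None was that much lower, against 30.7%. The members were chosen with these cells in view, and nothing is read from that count. Levels per kilobase of exon allow genes to be compared, except for Cfb, whose counts are uncertain. The order in the fresh cells of pool IM793 was Gbp2 at 971 CPM per kb, Ly6i at 347, Irf1 at 225.8, Gbp3 at 168.06, Gbp2b at 156.3, Gbp7 at 113.3, Gbp4 at 63.5, Cfb at 15.7 and Gbp5 at 11.9. With 1 sample there is no spread over samples for this order, and its near neighbours, Gbp3 and Gbp2b, differ little. In the fresh cells of pool IM834 Irf1 led, at 108.4 CPM per kb, before Gbp7 at 25.5, Gbp4 at 22.5, Gbp2 at 19.6 and Gbp3 at 13.4.

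**Figure D2:**
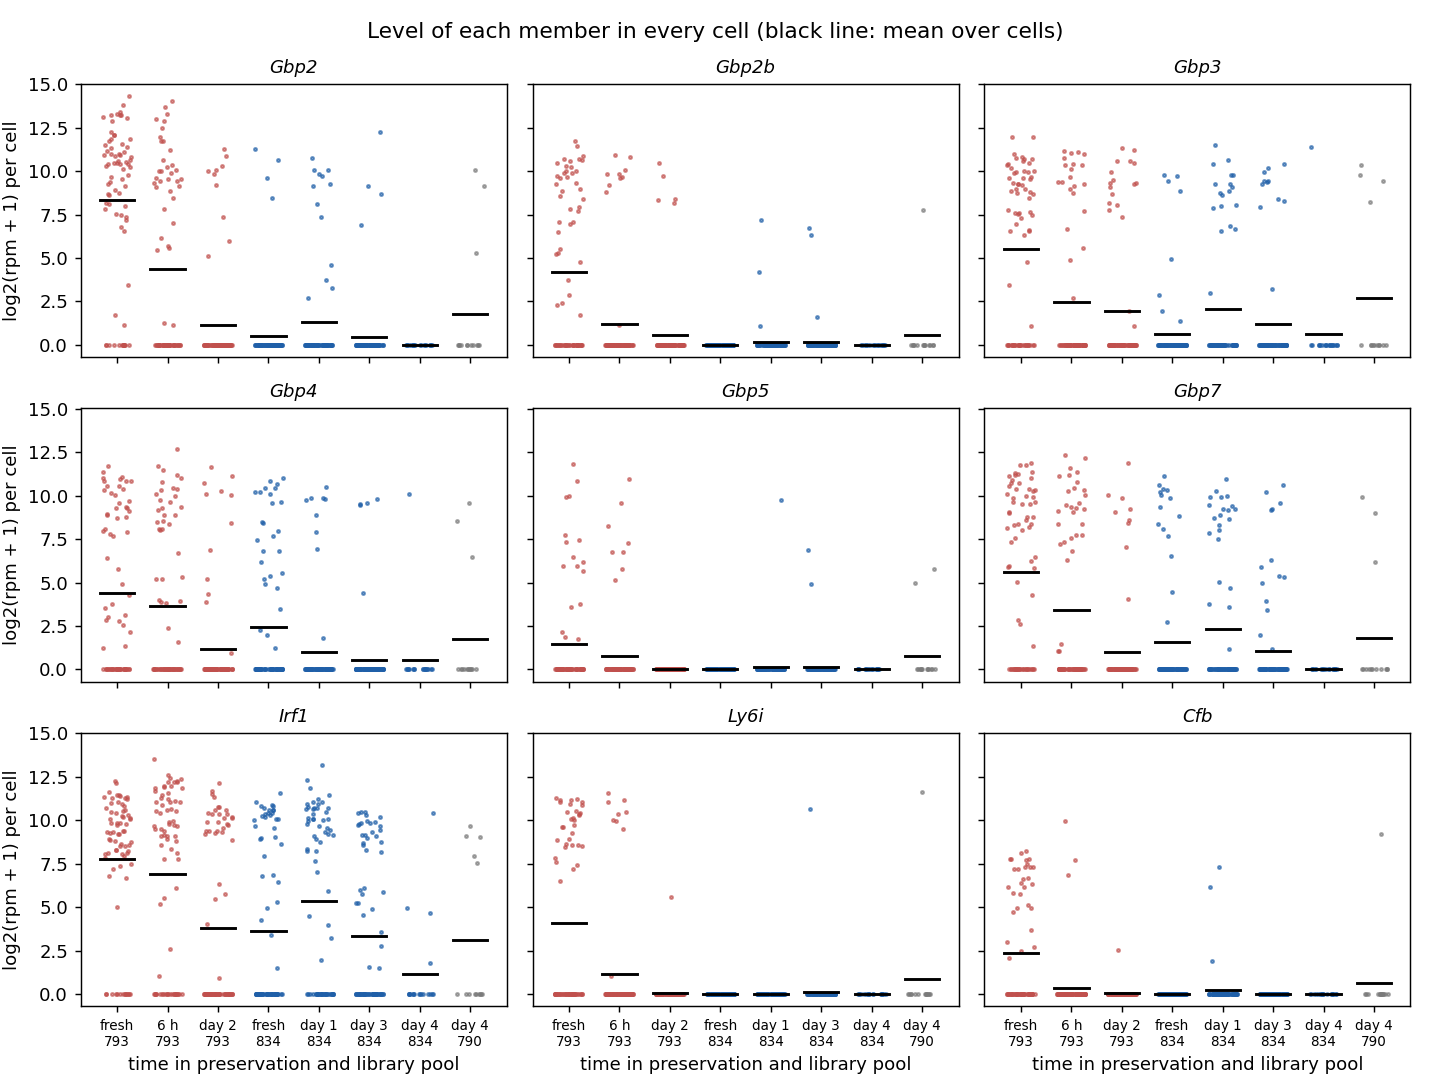
Level of each member in every cell, as log2(rpm + 1) (y axis), by time in preservation and library pool (x axis; 2 cells of day 4 in pool IM793 not drawn). Points are cells, coloured by pool, and the black line is the mean over the cells of a group. The mean is highest in fresh cells of pool IM793 in all 9 panels, while Ly6i, Cfb, Gbp2b and Gbp5 have few or no cells above 0 in pool IM834.

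Within pool IM793, the members were lower after preservation, with Irf1 apart at 6 h. The levels of Gbp2 were 2444 CPM fresh, 1110 CPM at 6 h and 128.8 CPM at day 2, and its share of cells with a read was 82.7%, 46.1% and 12.8%. Gbp2b stood at 441, 131.8 and 38.9 CPM, and Gbp5 at 79.01, 40.4 and 0 CPM. Each of these 3 genes was highest fresh and lowest at day 2, with the 2 cells of day 4 left aside. Gbp7 stood at 636, 424 and 72.9 CPM, and Gbp3 at 549, 302 and 193.7 CPM. Gbp4 held its level at 6 h (476 and 444 CPM) and stood at 126.4 CPM at day 2, with a read in 57.3%, 44.7% and 15.4% of cells.

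Irf1 went from 898 CPM fresh to 1346 CPM at 6 h and 481 CPM at day 2, while the share of cells with a read went from 81.3% to 69.7% and 41.03%. The higher level at 6 h thus stood with fewer cells that had a read, and the median of those cells was 837 rpm fresh and 1469 rpm at 6 h. Ly6i stood at 401, 197.6 and 0.579 CPM, with a read in 32, 9 and 1 cells. Cfb stood at 44.3, 25.1 and 0.0579 CPM, with a read in 29, 3 and 1 cells, and 1 cell of the 3 held 77.8% of its counts at 6 h.

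Relative to fresh cells of pool IM793, 3 of 9 members were at least 2-fold lower at 6 h (Gbp2b, Gbp2 and Ly6i, log2 ratios -1.74, -1.14 and -1.02) and 0 at least 2-fold higher. Over all 12586 genes compared, 20% were that much lower and 27.3% higher. The median log2 ratio of the members was -0.86, beside 0.20 over all genes. At day 2, 8 of 9 were at least 2-fold lower, beside 25.5% of 12570 genes, and none higher, beside 31.2%, and the ninth, Irf1, had a log2 ratio of -0.90. The median of the members was then -3.50, beside 0.21 over all genes. Gbp5, Ly6i and Cfb passed the filter through the fresh cells alone, and with at least 50 counts in each sum the median was -2.52 over 6 members. Gbp2 was 18.97-fold and Gbp2b 11.3-fold lower at day 2, Gbp3 2.83-fold, Ly6i 692-fold, Cfb 765-fold and Gbp5, with no read left, 1818-fold against the floor of 3 counts. Sums of this kind cannot tell fewer cells of a type from less RNA per cell, and the Csf1r and S100a8 gates shrank from 29 and 21 fresh cells to 5 and 1 cells at day 2, while the Cd79a gate went from 0 of 75 to 29 of 78 cells. The median number of genes read per cell was also lower, at 2649 fresh, 2136 at 6 h and 1731 at day 2, and in pool IM834 it was 1843 fresh and ran from 1130 (day 4) to 1966 (day 1) after. The part of these in the members' levels was not tested.

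Pool IM834 started low and gave a different picture. Gbp3 was higher at every later time than in fresh cells, at 43.9 CPM fresh, 159.7 CPM at day 1, 95.9 CPM at day 3 and 162.2 CPM at day 4. At day 4 all its counts came from 1 of 19 cells. Gbp2 stood at 49.4, 98.7, 73.3 and 0 CPM, and 71.99% of its counts at day 3 came from 1 cell. Gbp7 stood at 142.99, 187.8, 80.5 and 0 CPM, and Gbp4 was highest fresh, at 168.7, 104.1, 57.3 and 54.8 CPM.

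Irf1 in pool IM834 stood at 431 CPM fresh, 772 CPM at day 1, 258.1 CPM at day 3 and 132.8 CPM at day 4, with a read in 40.7%, 57.3%, 42.7% and 21.1% of cells. At day 4, 1 cell held 99.3% of its counts. Gbp2b reached 2.20 CPM and Gbp5 3.51 CPM at most. Ly6i had no read in fresh, day 1 or day 4 cells and 541 counts in 1 cell at day 3. Cfb was read in 3 cells at day 1 and in no other cell of the pool.

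Compared with fresh cells of pool IM834, 2 of the 6 members with enough counts were at least 2-fold higher at day 1 (Gbp3, log2 ratio 1.86, and Gbp5, from 1 cell), beside 27% of genes. At day 3, 4 of 8 were at least 2-fold higher, beside 26.7%, and 1, Gbp4 (log2 ratio -1.56), lower, beside 28.4%. Gbp2b, Gbp5 and Ly6i, 3 of those 4, rested on 1 to 3 cells and had no read in fresh cells. At day 4, 4 of 5 were at least 2-fold lower, 2 of them (Gbp2 and Gbp7) with no read left, beside 60.4% of all genes, and the median of all genes there was -2.72. The members' shares in this pool stand near those of all genes or rest on few cells. The median log2 ratios of the members were 0.92, 0.85 and -1.70, and those of day 3 and day 4 were -0.32 and -8.39 without the top cell of each member. In pool IM790, day 4 cells, with no fresh cells beside them, held Gbp3 at 257.3 CPM, Ly6i at 191.1 CPM (from 1 cell), Irf1 at 186.7 CPM and Gbp2 at 141.6 CPM.

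Over the gates, some members were read widely and others narrowly. The shares and levels by gate are pooled over pools and times that the gates hold unequally: 29 of the 72 cells of the Csf1r gate but 7 cells of the C1qb gate were fresh cells of pool IM793, and 94 cells of the latter gate were of pool IM834. Irf1 was read in 40% to 75% of cells of every gate. Gbp4 was read in 45.2% of cells of the Cd3e gate, 40.3% of the Csf1r gate and 8.87% of the C1qb gate. Within the fresh cells of pool IM793 it was read in 6 of 9, 21 of 29 and 6 of 7 cells of these gates, so that the C1qb gate was not low there. Gbp7 was read in 25% of the Cd3e gate and 57.4% of the S100a8 gate. Gbp2 was highest in the S100a8 gate, at 4087 CPM with a read in 68.1% of cells, then in the Csf1r gate, at 986 CPM and 51.4%, and stood between 36.1 and 177.4 CPM in the Cd3e, Cd79a and C1qb gates and in cells of no gate. Gbp3 was highest in the Csf1r gate, at 697 CPM and 56.9% of cells, and was read in 33.9% of the C1qb gate but 3.85% of the Cd3e gate. Within the fresh cells of pool IM793 that order was the other way round, with Gbp3 at 993 CPM in the C1qb gate, read in 7 of 7 cells, and at 831 CPM in the Csf1r gate, read in 24 of 29.

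Ly6i and Cfb were the narrow members. Ly6i had no read in any cell of the Cd3e, Cd79a and C1qb gates, and was read in 43.1% of the Csf1r gate (596 CPM) and 23.4% of the S100a8 gate (282 CPM). Cfb was read in 31.9% of the Csf1r gate, 14.9% of the S100a8 gate and 4.84% of the C1qb gate, and in no cell of the Cd3e and Cd79a gates. Within the fresh cells of pool IM793 it was read in 5 of 7 cells of the C1qb gate and 18 of 29 of the Csf1r gate. Gbp2b and Gbp5 had no read in the Cd79a gate. That gate held 0 fresh cells of pool IM793, the group where Gbp2b, Gbp5, Ly6i and Cfb were read in the most cells. Its zeros therefore cannot show whether such cells lack these members. In the Cd3e gate Gbp2b was read in 1 cell and Gbp5 in 3 cells. Median depth ran from 618542 to 724591 counts over the 5 marker gates, and with each cell thinned to 200000 counts the share that moved most was that of Gbp2b in the S100a8 gate, from 29.8% to 24.4%.

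**Figure D3:**
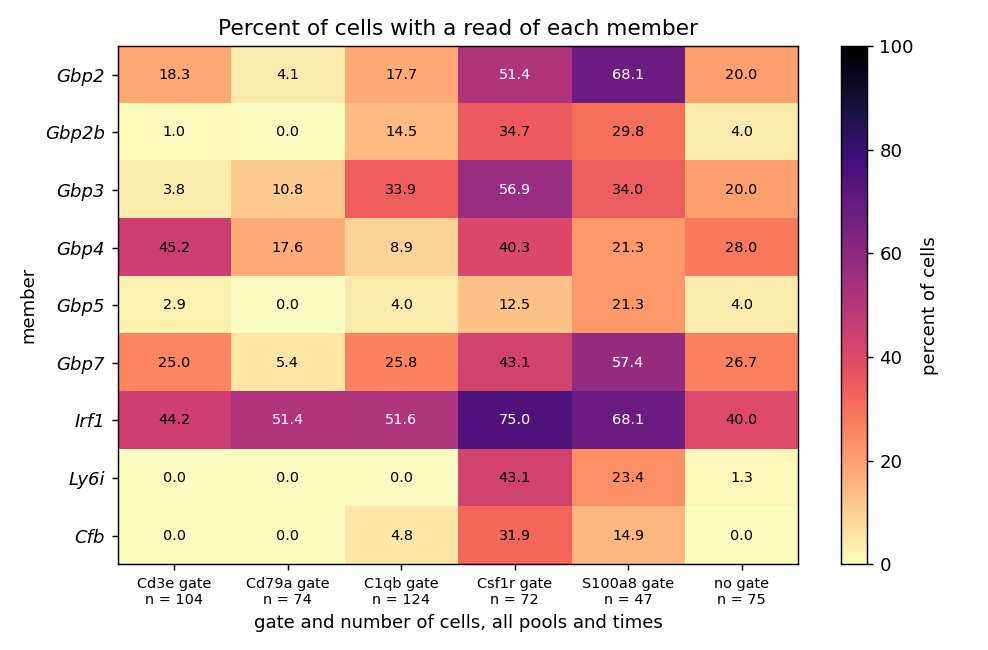
Percent of cells with at least 1 read of each member (rows) in each gate (columns, with the number of cells), over all pools and times. The Csf1r and S100a8 columns are the highest for 8 of the 9 members, Gbp4 is read most in the Cd3e gate, and Ly6i and Cfb are at or near 0 outside the Csf1r, S100a8 and C1qb gates. The gates hold pools and times unequally, and in the fresh cells of pool IM793 alone the share was highest in the C1qb gate, of 7 cells, for every member but Gbp2 and Ly6i. The Cd79a gate held 0 of those fresh cells.

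Within a gate, the gap between the fresh cells of both pools was wide in the C1qb gate, where C1q genes mark macrophages. In its 7 fresh cells of pool IM793, Irf1 ran from 602 through 1947 to 4556 rpm, Gbp3 from 120.9 through 427 to 1808 rpm, and Gbp2b was read in all 7. In the 8 fresh cells of pool IM834, Irf1 was read in 5, Gbp3 in 4, Gbp2 in 1 and Gbp2b in none. The members with enough counts, 8 of 8, were at least 2-fold higher in pool IM793, beside 41.7% of genes (30.3% were lower), with a median log2 ratio of 5.07 beside 0.37. Of the 8, Gbp2b, Gbp4, Gbp5 and Cfb had no read in those cells of pool IM834, so that 4 ratios are bounds and these members passed the filter through pool IM793 alone. In the Cd3e gate the gap was smaller: 2 of 5 were at least 2-fold higher (Gbp2, log2 ratio 1.99, and Gbp4, 1.63), beside 24.7% of genes, and the median was 0.53 beside -0.39. The Csf1r and S100a8 gates had too few fresh cells in pool IM834 to compare.

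At 6 h in pool IM793, the gates differed from one another. In the C1qb gate, 7 of 8 members were at least 2-fold lower, beside 47.1% of genes, with a median of -4.22 (4 of the 8 being bounds) beside -0.69, and no cell of the 5 had a read of Gbp2b, Gbp4, Gbp5 or Cfb. Irf1 went there from 1901 to 248.6 CPM. In the Csf1r gate 8 of 9 members stood within 2-fold of their fresh level and 1, Gbp5 (log2 ratio -4.25), was lower, beside 34.1% of genes, with 24.9% of genes higher. The median there was -0.14 beside -0.11. Gbp3 stood at 831 CPM fresh and 882 CPM at 6 h, Ly6i at 886 and 802 CPM, and Irf1 at 843 and 853 CPM. The cells with a read were fewer in that gate, 27 of 29 and 7 of 14 for Gbp2 and 23 of 29 and 6 of 14 for Ly6i. In the S100a8 gate 7 of 9 members were above their fresh level, with a median of 0.43 beside -0.47, and 1, Irf1, was at least 2-fold higher, beside 25.6% of genes, and none at least 2-fold lower, beside 42.3%. Irf1 stood there at 870 CPM in 21 fresh cells and at 2702 CPM in 16 cells at 6 h, and Gbp2 at 6232 and 4238 CPM. The share of cells with a read was lower at 6 h for every member there but Irf1 and Gbp5, with 11 of 21 and 4 of 16 cells for Gbp3, 8 of 21 and 2 of 16 for Ly6i and 5 of 21 and 1 of 16 for Cfb, so that few cells carried their higher sums. In the Cd3e gate 3 of 6 members (Gbp3, Gbp4 and Gbp7) were at least 2-fold lower, beside 25.7% of genes, and Gbp2b, read in 1 cell of 19 and in no fresh cell, was higher, beside 37.9% of genes. The difference between gates was not tested, as each rests on 1 sample a time and on 5 to 29 cells.

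At day 2, members were mostly lower in the gates that could be compared. A member with no read on 1 side passed the filter through the other side alone, and its ratio is a bound. In the C1qb gate 8 of 8 were at least 2-fold lower, beside 32.7% of genes, and none higher, beside 33.6%, with a median of -2.49 beside 0.04 (3 of the 8, Gbp4, Gbp5 and Cfb, being bounds). Gbp2 stood there at 263.8 CPM against 969 CPM fresh, Gbp3 at 312 against 993 CPM, and Gbp4 had no read in 15 cells against 843 CPM fresh. In the Cd3e gate 3 of 4 were at least 2-fold lower, beside 37.3%, with a median of -1.20 beside -0.01. Only 5 cells were left in the Csf1r gate, where 8 of 9 were at least 2-fold lower, beside 66.1% of genes, and the median of all genes was -3.30. Of these, 5 had no read left and are bounds (Gbp2, Gbp2b, Gbp4, Gbp5 and Gbp7). In the C1qb gate of pool IM834, the median was 0.95 at day 1, beside 0.52 over all genes, when 1 of 5 members was at least 2-fold higher, beside 45% of genes, and 1.28 at day 3, beside 1.00, when 4 of 7 members were at least 2-fold higher, beside 50% of genes. At least 2-fold lower there were 0 of 5 at day 1, beside 25.6%, and 1 of 7 at day 3 (log2 ratio -1.07), beside 21.1%. Among those higher, Gbp4 at day 1 and Gbp2b, Gbp4 and Gbp5 at day 3 had no read in fresh cells. At day 4, 3 of 4 were at least 2-fold lower in it, beside 50% of genes, with Gbp2 and Gbp7 unread. In the Cd3e gate, with 7 cells left at each time, 2 of 5 were at least 2-fold lower at day 1, beside 58.9% of genes, and 4 of 5 at day 3, beside 56.6%, with Gbp3 unread at day 1 and Gbp2, Gbp3 and Gbp7 at day 3. At least 2-fold higher there were 1 of 5 at day 1 (log2 ratio 1.28), beside 19.1%, and 0 of 5 at day 3, beside 20.8%. The medians were 0.75 beside -2.80 over all genes at day 1 and -6.33 beside -2.10 at day 3. In the Cd79a gate 0 of 2 were at least 2-fold lower at day 1, beside 37.7%, and 1 of 3 at day 3, beside 53.8%, which was Gbp4, unread there. At least 2-fold higher in that gate were 0 of 2 at day 1, beside 32.3%, and 1 of 3 at day 3 (log2 ratio 8.29), beside 26.3%. Gbp3, the member higher at each later time in that pool, had a log2 ratio of 0.96 at day 1, -0.91 at day 3 and 0.12 at day 4 within the C1qb gate.

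**Figure D4:**
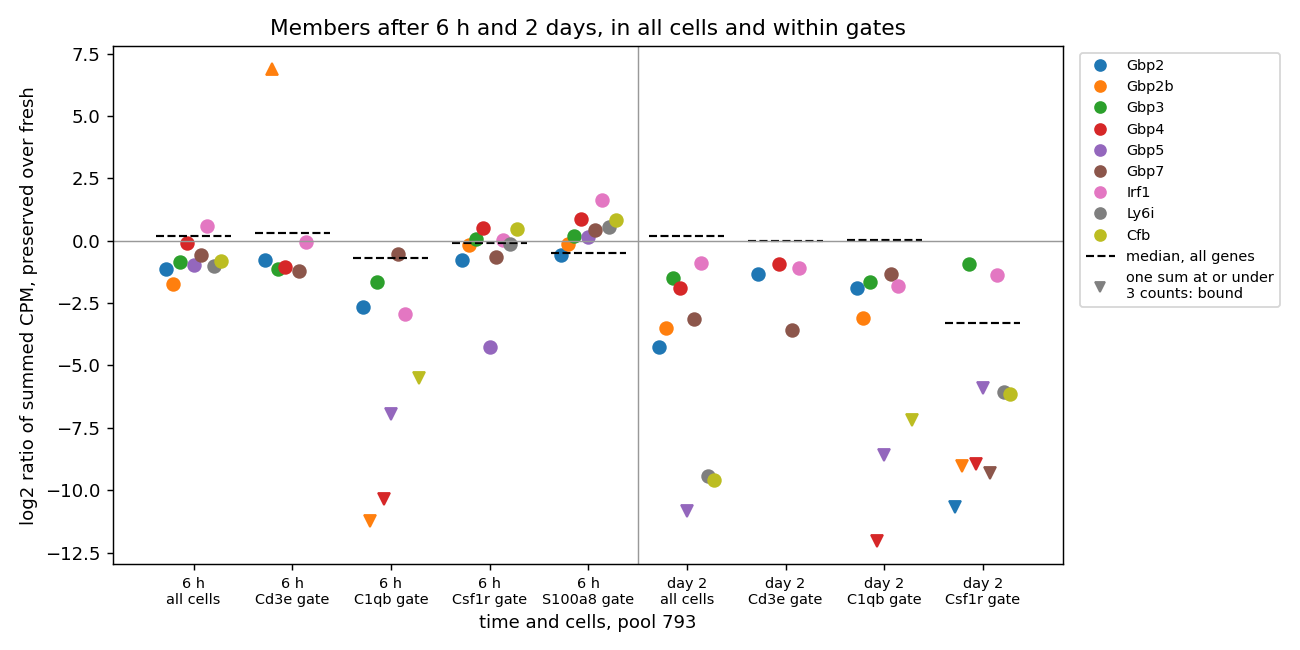
Log2 ratio of summed CPM, preserved over fresh (y axis), for each member with at least 100 counts in both sums together, after 6 h and 2 days in pool IM793, in all cells and within gates (x axis). Circles are members, triangles are bounds where a sum was at or under 3 counts, and the dashed line is the median over all genes; members lie below it in the C1qb gate, with Gbp7 at 6 h the exception, and most lie above it in the S100a8 gate.

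Reads of several members met in the same cells. At least 5 of the 9 were read in 61 of 502 cells (12.2%), of which 44 were fresh cells of pool IM793 (58.7% of its 75, exact interval 46.7 to 69.9%) and 12 were 6 h cells (15.8%, 8.43 to 25.96%). The other 5 were 2 cells of day 2, 1 of day 3 and 2 of day 4 in pool IM790. Among the 81 fresh and 75 day 1 cells of pool IM834 there was none. In the fresh cells of pool IM793 they made up 28 of 29 cells of the Csf1r gate, 7 of 7 of the C1qb gate, 7 of 21 of the S100a8 gate and 1 of 9 of the Cd3e gate. At 6 h they were 6 of 14 cells of the Csf1r gate, 4 of 16 of the S100a8 gate and 0 of 5 of the C1qb gate. Cells with no member read made up 2.67% of fresh, 11.8% of 6 h and 35.9% of day 2 cells of pool IM793, and 28.4%, 21.3%, 40.2% and 68.4% of the fresh, day 1, day 3 and day 4 cells of pool IM834.

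**Figure D5:**
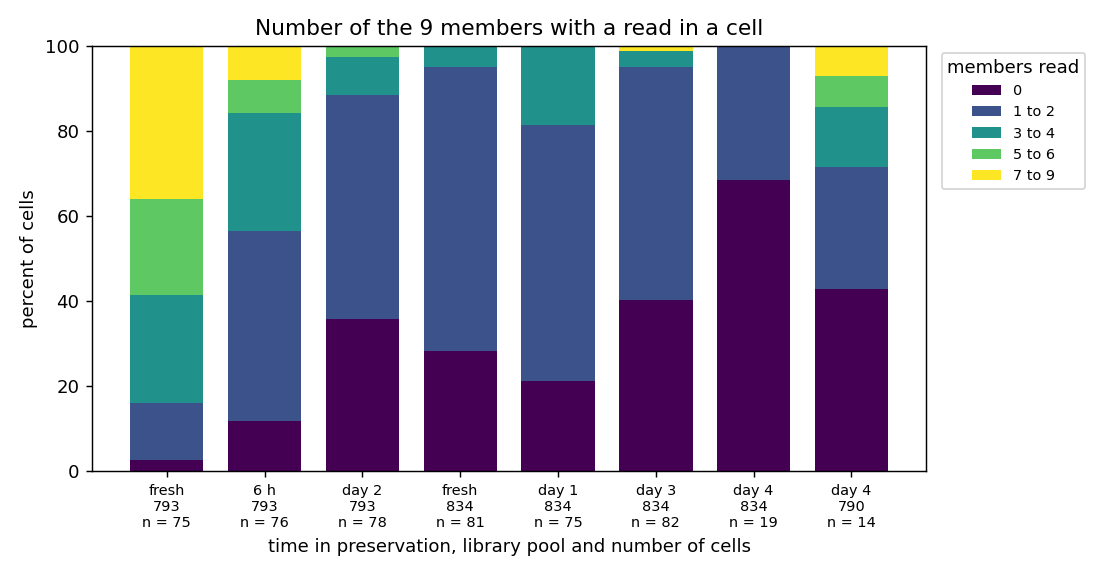
Percent of cells (y axis) by the number of the 9 members with a read (colours), for each time and library pool (x axis, with the number of cells). Cells with 5 or more members are 58.7% of the fresh cells of pool IM793, 15.8% at 6 h and 2.56% at day 2, and are absent from the fresh and day 1 cells of pool IM834.

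Across the cells of a gate, which come from several pools and times and differ in depth, the median Spearman correlation between pairs of members was 0.40 in the Csf1r gate (72 cells, 36 pairs, 35 above 0), 0.37 in the S100a8 gate (47 cells, 33 of 36 pairs above 0) and 0.35 in the C1qb gate (28 of 28 pairs above 0). It was 0.086 in the Cd3e gate (4 members, 6 pairs) and 0.076 in the Cd79a gate (3 members, 3 pairs). Fewer members were read in enough cells there, so these medians do not cover the same pairs as those above. The closest pairs were Gbp2 with Gbp7 in the S100a8 gate (0.75, both read in 26 cells) and Gbp2 with Gbp4 in the Csf1r gate (0.71, both read in 27 cells). Within pool IM834 alone the median was 0.13 in the Csf1r gate (22 cells) and 0.20 in the C1qb gate (94 cells), and within pool IM793 it was 0.46 in the C1qb gate (28 cells). Outside the members, 6535 genes read in at least 10% of the 502 cells were ranked by their correlation with the members' mean level. Among the 10 most like it over all cells were Ifi47, Irf7, Il18bp and Klra2 (0.46, 0.46, 0.46 and 0.45), and among those of the Csf1r gate were Gm11127 (0.71), Ms4a4c (0.70) and Zbp1 (0.69). In the C1qb gate Sp140 led at 0.46, and Gbp9 (0.43) and Xist (0.43) were among the first 10.

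Of the pathway upstream of the members, the ligand gene Ifng was read in 17 cells of the Cd3e gate (16.3%) and in 9 of 75 cells of no gate, in 1 cell each of the Cd79a and Csf1r gates, and in 0 cells of the C1qb and S100a8 gates. In the fresh cells of pool IM793 it was read in 7 of 75 cells at 220 CPM, of which 67.4% came from 1 cell. The level of Ifng was 52.9 CPM at 6 h (8 cells) and 18.6 CPM at day 2 (1 cell), and in pool IM834 it was 44.1, 59.7 and 147.6 CPM fresh, at day 1 and at day 3. At day 4 of pool IM834 Ifng was at or under the floor of 3 counts, with a log2 ratio to fresh of -6.93. The receptor genes Ifngr1 and Ifngr2 stood close together in fresh cells of the pools, at 514 and 632 CPM and at 146.2 and 186.95 CPM.

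A list of 33 other genes of the response or beside the members in the genome held GTPases, chemokines, receptors and genes of peptide supply. At 6 h in pool IM793, 8 of 32 with enough counts were at least 2-fold lower, near the 20% of all genes, and 3 higher, beside 27.3%, with a median log2 ratio of -0.09. At day 2, 18 were lower, beside 25.5%, and 2 higher, beside 31.2%, with a median of -1.33. In pool IM834, 12 of 29 were lower at day 1, beside 25.8%, and 2 higher, beside 27%, and at day 3, 17 were lower, beside 28.4%, and 2 higher, beside 26.7%. At day 4, 21 of 29 were lower, beside 60.4%, and 2 higher, beside 17.8%, with a median of -3.69 beside -2.72 over all genes. Igtp, an immunity-related GTPase, stood at 483, 582 and 73.5 CPM in fresh, 6 h and day 2 cells of pool IM793 and at 280, 35.5 and 14.7 CPM in fresh, day 1 and day 3 cells of pool IM834. Gbp9 stood at 228.3, 249.1 and 155.6 CPM in the same order and at 103.9, 56.9 and 78.98 CPM. The inducible nitric oxide synthase gene Nos2 and the tryptophan-degrading enzyme gene Ido1 were each read in at most 1 cell of any group. Fresh cells of pool IM793 had 18 of 32 of these genes at least 2-fold higher than those of pool IM834 (beside 27.8% of all genes) and 2 lower, with a median of 1.11. Genes known best from type I interferon were also higher there, 8 of 10 at least 2-fold, with a median of 5.81, and Irf7 at 656 against 67.03 CPM. At 6 h Irf7 stood at 109.1 CPM and 5 of these 10 genes were at least 2-fold lower, beside 20% of all genes, and 2 higher, beside 27.3%. At day 2, 8 of 10 were lower, beside 25.5%. In pool IM834, 4 of 8 type I genes were at least 2-fold higher after 1 day, beside 27% of all genes, and 2 lower, beside 25.8%. After 3 days 3 of 7 were higher, beside 26.7%, and none that much lower, beside 28.4%. After 4 days 7 of 8 were higher, beside 17.8%, with Irf7 from 1 cell, and 1 lower, beside 60.4%.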

How the data were processed

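Full-length cDNA of 502 sorted cells was sequenced, 1 library per cell and without molecular identifiers. According to the methods, the authors trimmed reads to 75 bp with fastx_trimmer, depleted duplicates with picard MarkDuplicates, aligned to GRCm38 with STAR and counted with HTSeq (intersection-strict, strand ignored) over Ensembl genes, leaving out cells under 1000 reads. Tool versions were not given in the sources used here. Deposited values are raw counts. The 96 spike-in rows and 1 vector row (0.140% of counts) were left out, while an 18S rRNA row (6.60%) was kept. Unused columns of values numbered 0.

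For each timepoint in a pool, the counts of its cells were added up and divided by their total. Ratios between sums were taken where both held 100 counts or more between them, with a floor of 3 counts, and 2-fold was the limit for a count of genes. There were 6 comparisons. With 1 sample a group no test was run. Intervals are exact at 95%. Gates needed at least 10 counts, and comparisons within a gate at least 5 cells a side. Doublets were not called, and 6 cells in several gates were kept apart. Shares were also computed with cells thinned to 200000 counts, which left out 26 cells. Cells whose totals were lowest, down to 1759 counts, give the least precise values. The named genes were the members, a pathway list of 43 genes, and the 10 genes most correlated with the members' mean log2(rpm + 1) over all cells and in 2 gates. Members and lists were chosen with earlier results of these data known. The values of 1 listed gene are not reported here. Scaling factors came from edgeR 4.0.16 and DESeq2 1.42.0 in R 4.3.3 as alternatives only, and the rest was done in Python 3.11.15 with numpy 2.4.6, scipy 1.17.1, pandas 2.3.3 and matplotlib 3.10.9. The count steps were tested on simulated data.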

Additional observations from a re-analysis of the deposited data

Results flagged for a closer look

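Summed over all cells, Gbp3 moved in opposite directions in the pools. Its log2 ratio to fresh cells was -0.86 at 6 h and -1.50 at day 2 in pool IM793, and 1.86, 1.13 and 1.89 at day 1, day 3 and day 4 in pool IM834. The mean ratio of pool IM793 less that of pool IM834 was -2.81. The times differ between the pools, the value of day 4 comes from 1 cell, and the difference was not tested. The C1qb gate of pool IM834 held 8 of 81 fresh cells and 54 of 82 cells at day 3. Within that gate the log2 ratios of Gbp3 were -1.66 at 6 h and -1.67 at day 2 in pool IM793, and 0.96, -0.91 and 0.12 at day 1, day 3 and day 4 in pool IM834, so that the opposite direction did not hold there at day 3.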

How the results depend on the processing

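No paired analysis was possible because cells carry replicate numbers in accession order only and no test was run. Among the alternatives, 37 values moved and 100 stayed within 0.5 (log2), 0.1 (correlation), 1.5-fold (levels) or the binomial interval (shares), among them those with TMM or DESeq2 factors, without the 18S rRNA row or without cells under 100000 counts. The median log2 ratios that moved, in the order 6 h, day 2, day 1, day 3, day 4, were as follows. With fresh cells of both pools they were -0.037, -2.58, -3.37, -3.93 and -6.85. Within the C1qb gate they were -4.22 at 6 h, -2.49 at day 2 and -3.91 at day 4, within the Csf1r gate -0.14 and -6.14 at 6 h and day 2, and within the Cd3e gate -1.20 at day 2 and -6.33 at day 3. Within the Cd79a gate they were -0.47 at day 1 and -0.059 at day 3, and within the S100a8 gate, an alternative chosen after seeing the data, 0.43 at 6 h. Leaving out the top cell of each member gave -4.19 for day 2, -0.32 for day 3 and -8.39 for day 4. With at least 50 counts in each sum, which leaves fewer members, they were -2.52 at day 2 and -0.74 at day 3. As a difference of mean log2(rpm + 1) they were -2.21 at 6 h and 0.044 at day 3, with thinned cells -0.24 at day 3 and -2.43 at day 4, with equal weight per cell -2.40 at day 4, and with no filter 1.43 at day 1. Between fresh cells of both pools the median was 4.09 as a difference of mean log2(rpm + 1), 2.15 with at least 50 counts in each sum, 6.36 without top cells, 0.53 in the Cd3e gate and 5.07 in the C1qb gate. The median correlation was -0.10 in the Cd79a gate of pool IM834, 0.46 and 0.20 in the C1qb gate of pools IM793 and IM834, and 0.13 in the Csf1r gate of pool IM834. The median level in the Cd79a gate was 6.32 CPM with a gate at 50 counts and 20.6 rpm with equal weight per cell. Apart from fewer members or cells where named, the cause was not tested. Each group is 1 sample, and members read in few cells, chiefly at day 3 and day 4, are set by those cells.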
